A study of Mus musculus with 4 samples.

Results

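Penk and Ramp1 were followed through 4 RNA libraries of regulatory T cells (Tregs) by their names in the deposited gene tables. Both were found among the 28032 features with an exon length, and both were among the 11113 genes with enough reads to be tested. They had been picked because their reads differed with the genotype, so their genotype differences are given as values without a test. Tregs are a CD4 T cell type that holds immune responses in check, and the transcription factor Foxp3 defines them. They were sorted as CD4+Foxp3+ cells from C57BL/6 mice aged 8 weeks, either wild type (WT) or Csnk2b-deficient, written Csnk2b-/- in the labels, which name no Cre driver or allele. Csnk2b encodes the beta subunit of CK2, a serine/threonine kinase. Replicate 1 of each genotype came from the spleen and replicate 2 from the tracheal lymph nodes (splenic and nodal Tregs below), so that each genotype and tissue had 1 library, and the labels do not say whether animals were pooled. A genotype difference within a tissue thus compares a pair of libraries, and its 95% exact interval covers counting error only, not the spread between animals.

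Penk encodes proenkephalin, a secreted precursor that is cut into the opioid pentapeptides Met-enkephalin and Leu-enkephalin. Enkephalins act on the delta and mu opioid receptors, which lower cyclic AMP through Gi proteins, and the gene is known to be active in Tregs as well as in neurons. Ramp1 encodes a single-span membrane protein that pairs with the receptor Calcrl to form the receptor for calcitonin gene-related peptide (CGRP), a neuropeptide of sensory nerves. That receptor raises cyclic AMP through Gs, and it lets sensory nerves act on immune cells of barrier tissues and their draining nodes.

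The Penk coding sequence is given as background, and no read was placed on it here. The counted mm9 gene was listed with 5 exons, 2 transcripts and 1634 exon bases, unlike the transcript shown. In the first-numbered GENCODE M21 transcript of Penk (GRCm38, minus strand), which has 2 exons, the 807 coding bases held 7 enkephalin copies of 15 bases each, 6 with the codons of Met-enkephalin and 1 with those of Leu-enkephalin. All 7 lay in the second exon (chr4:4133531-4134507), which makes up 67.4% of the 1449 bases of the transcript. The stretch from coding base 298 to 573 is shown with its 4 copies in capitals.
Penk enkephalin stretch: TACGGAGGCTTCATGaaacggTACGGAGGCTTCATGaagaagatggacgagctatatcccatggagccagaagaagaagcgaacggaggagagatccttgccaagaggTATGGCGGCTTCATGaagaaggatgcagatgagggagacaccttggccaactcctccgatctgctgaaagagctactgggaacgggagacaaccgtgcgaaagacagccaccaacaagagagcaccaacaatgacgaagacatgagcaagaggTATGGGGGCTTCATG
Reads across exon junctions come from spliced RNA. The junctions within the coding sequences are shown because such reads are counted below, with the 4 bases on each side of the junction in capitals. The Penk transcript has 1 junction, over an intron of 3498 bases, and the first-numbered Ramp1 transcript (GRCm38, plus strand, chr1:91180046-91225196) has 2, over introns of 16630 and 26196 bases.
Penk exon 1 to exon 2: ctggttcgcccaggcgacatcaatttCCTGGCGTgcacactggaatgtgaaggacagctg
Ramp1 exon 1 to exon 2: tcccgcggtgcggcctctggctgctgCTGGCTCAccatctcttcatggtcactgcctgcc
Ramp1 exon 2 to exon 3: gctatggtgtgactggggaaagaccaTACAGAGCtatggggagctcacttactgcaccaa
The last exon makes up 89.9% of the 2325 bases of the Ramp1 transcript, of which 447 are coding.

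The libraries held 4737814 to 6750695 exon reads. Csnk2b itself had 649 exon reads in the WT and 148 in the deficient splenic library, and 667 and 283 in the nodal ones, so reads of the targeted gene were fewer in both deficient libraries. Of the 6 T cell and Treg genes Cd3e, Cd4, Foxp3, Il2ra, Ctla4 and Ikzf2, each had at least 562 reads per library. Foxp3, the gene the sort used, was 1 of the genes that fell in the deficient libraries. The fall was 1.66 on the log2 scale (SE 0.25, edgeR adjusted p = 0.0375). The Foxp3 level was 811 CPM (counts per 1e+06 reads, scaled by library) in WT and 374 in deficient splenic Tregs, and 570 and 123 in nodal ones. DESeq2, limma-voom and edgeR without a filter also called Foxp3, whereas the call was lost under other scalings, a filter at 5 CPM, no replicate block and any library left out. On uniquely placed reads the log2 fold change was -0.71 (edgeR adjusted p = 0.90, from 1.67e-11 to 1.00 over the alternatives). The part of Foxp3 in the ratios of Penk and Ramp1 was not tested.

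Summed levels of the markers of other cell types were lower in both splenic libraries than in the deficient nodal one for every list whose sum is given here. The summed level of 8 myeloid and dendritic genes was 10.8 CPM in WT and 6.75 in deficient splenic Tregs, and 46.2 and 301 in nodal ones, where Lyz2 had 187 and 1291 reads. Of those 8 genes, 6 were at 0 in the WT and 1 in the deficient nodal library. The sum of 5 B and plasma cell genes ranged from 14.8 to 61.8 CPM, and that of 5 erythroid and platelet genes was at most 0.507 CPM in splenic Tregs, with 41.8 in WT and 3.95 in deficient nodal Tregs. The 2 CD8 genes summed to 12.5 to 52.5 CPM, and 4 NK cell genes to 1.22 to 10.3 CPM with 2 of them at 0 in all libraries. Of 6 mast cell and basophil genes 4 were at 0 throughout, and the sum was at most 5.92 CPM. The neuronal and glial genes Snap25, Tubb3, Gfap and Prph were at 0 throughout, while Syp, a synaptic vesicle gene, had 11 to 77 reads. The sum of 7 stromal, endothelial and epithelial genes, 131 to 261 CPM, came mostly from Pecam1, and Col3a1 and Pdgfra were at 0. That of 5 genes of group 2 innate lymphoid cells, 61.5 to 230 CPM, came mostly from Klrg1, with 2 reads of Il13 and 1 of Il5 in all.

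Penk had more reads in Csnk2b-deficient than in WT Tregs of both tissues. On chromosome 4 (4060678 to 4065966, mm9), it had 563 exon reads in WT and 1209 in deficient splenic Tregs, and 790 in WT and 2949 in deficient nodal Tregs. Scaled to library size, the level was 71.4 CPM (95% Poisson interval 65.6 to 77.6) in WT and 209 (198 to 221) in deficient splenic Tregs. Among nodal Tregs it was 193 CPM (180 to 207) in WT and 647 (623 to 670) in deficient Tregs. The WT splenic library was thus lowest, the deficient nodal library highest, and the WT nodal and deficient splenic libraries lay next to each other with overlapping intervals. The deficient level was 2.93 times WT in splenic Tregs (95% exact binomial interval 2.65 to 3.24) and 3.35 times WT in nodal ones (3.09 to 3.63), and these intervals overlap.

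Ramp1 had fewer reads in Csnk2b-deficient than in WT Tregs of both tissues. On chromosome 1 (93076399 to 93121773, mm9), it had 216 exon reads in WT and 58 in deficient splenic Tregs, and 271 in WT and 42 in deficient nodal Tregs. The level was 27.4 CPM (95% Poisson interval 23.9 to 31.3) in WT and 10.0 (7.62 to 13.0) in deficient splenic Tregs, and 66.2 (58.6 to 74.6) in WT and 9.21 (6.64 to 12.4) in deficient nodal Tregs. The deficient libraries were at nearly the same level in both tissues, and the WT libraries lay above them and apart from each other. WT was 2.73 times the deficient level in splenic Tregs (95% exact binomial interval 2.03 to 3.71) and 7.19 times in nodal ones (5.18 to 10.2). These intervals do not overlap, but with 1 library of each kind a difference of the genotype ratio between the tissues has no test here.

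**Figure D1:**
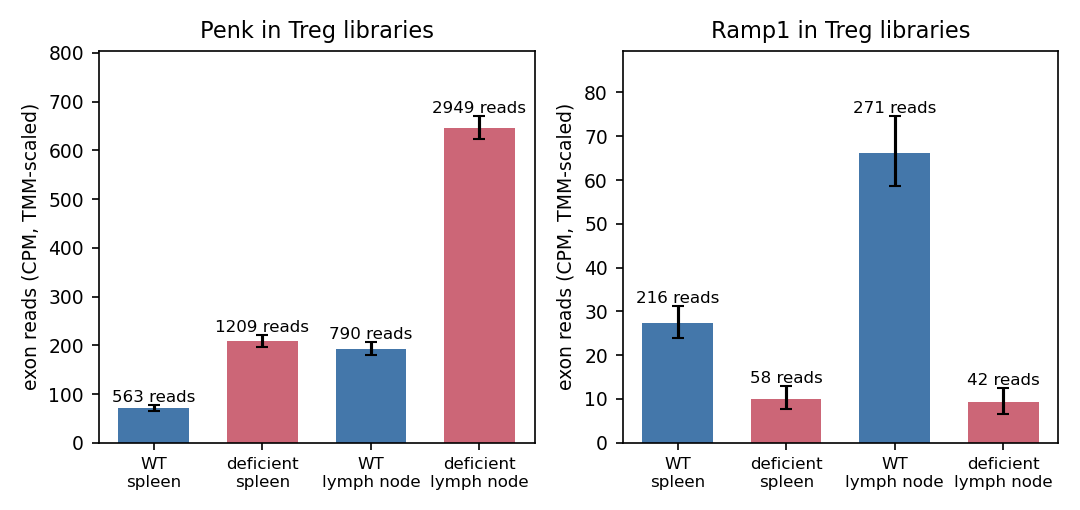
Exon reads of Penk and Ramp1 in CPM, scaled by trimmed mean of M values (TMM), in each of the 4 Treg libraries, with the read count above each bar. Error bars are 95% Poisson intervals and cover counting error only. Penk was highest in the deficient nodal library at 647 CPM, and Ramp1 in the WT nodal library at 66.2 CPM.

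On a scale that allows for gene length, Penk was the more abundant of the pair in every library. The authors' RPKM (reads per kilobase of exon, scaled to library size) of Penk was 39.4 in WT and 115 in deficient splenic Tregs, and 79.1 and 257 in nodal ones. These values placed it at rank 1130 and 261 of 11113 genes in the splenic libraries, and at 643 and 187 in nodal ones. The RPKM of Ramp1 was 8.17 and 2.99 in splenic Tregs, and 14.7 and 1.98 in nodal ones, at rank 5619, 8439, 2958 and 7894. Penk was thus above 89.8% of the tested genes in its lowest library, while Ramp1 in WT lay near the middle in splenic Tregs and above 73.4% of genes in nodal ones.

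Over all genes the edgeR quasi-likelihood test of the genotype (fitted on tissue plus genotype, Benjamini-Hochberg adjustment) called 14 genes higher in Csnk2b-deficient Tregs, which is 0.126% of those tested, and 16 genes (0.144%) in either direction. Penk was 1 of the 14 and Ramp1 was not called, and since both were picked on this contrast nothing is read from that. Scaled by the median of ratios, the test called 4 higher and 0 lower. Ratios at least as high as those of Penk in both pairs were found for 51 genes (0.459%, Penk included), and ratios at least as low as those of Ramp1 for 9 genes (0.081%, Ramp1 included). Ratios of 2-fold or more in both pairs were seen for 149 genes upward (1.34%) and 82 downward (0.738%). The nodal pair was the more scattered, with 26.3% of genes 2-fold or more apart compared with 4.18% in the splenic pair. A ratio of a given size was thus rarer among splenic than among nodal libraries.

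**Figure D2:**
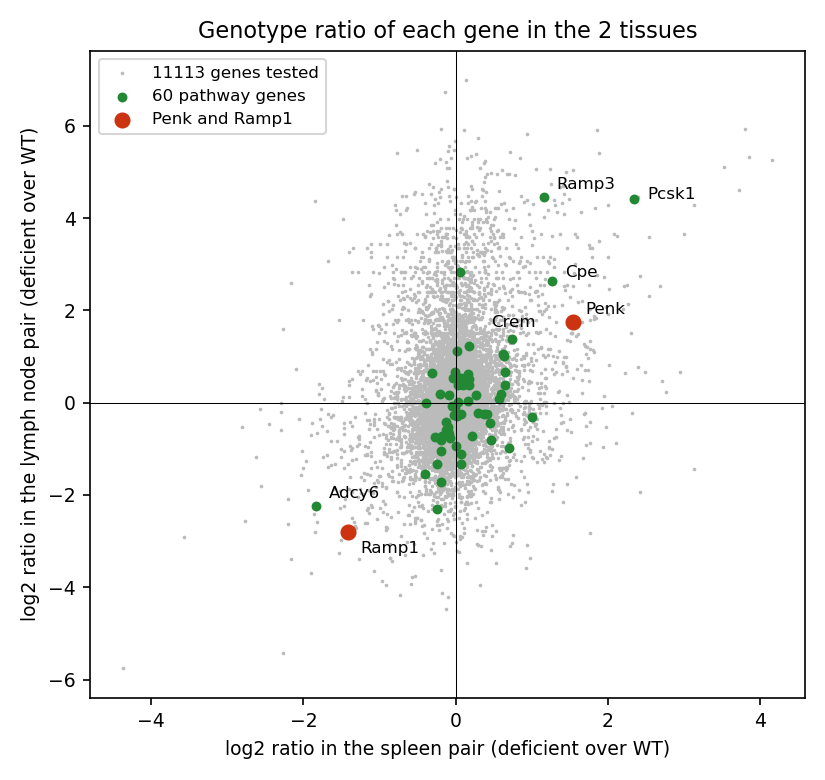
Log2 ratio of Csnk2b-deficient over WT for each of 11113 tested genes (grey), in the splenic pair (x axis) and the nodal pair (y axis), with 60 pathway genes in green and the 2 members in red. Penk lies in the upper right, at 1.55 and 1.74, and Ramp1 in the lower left, at -1.42 and -2.80.

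Several marker lists were higher in the deficient nodal library than in the WT one, as Penk was. The myeloid sum was 46.2 CPM in WT and 301 in deficient nodal Tregs, the B and plasma cell sum 21.5 and 61.8, and the NK cell sum 1.22 and 10.3. Igj, a plasma cell gene, had 0 and 164 reads. Between the splenic libraries, where Penk stood at 71.4 and 209 CPM, the myeloid sum was 10.8 in WT and 6.75 in deficient Tregs, the NK cell sum 9.77 and 4.50, and the B and plasma cell sum 14.8 and 18.3. The list of group 2 innate lymphoid cells moved with Penk in both pairs, at 61.5 and 94.8 CPM among splenic Tregs and 88.0 and 230 CPM among nodal ones, nearly all of it Klrg1, which Tregs also express. The B and plasma cell sum was also higher in the deficient library of both pairs. So was the mast cell and basophil sum, at 3.30 and 3.81 CPM in splenic and 1.96 and 5.92 CPM in nodal Tregs. Lower in the deficient library of both pairs, as Ramp1 was, was the CD8 sum, at 16.4 and 12.5 CPM in splenic and 52.5 and 39.0 CPM in nodal Tregs. So was the sum of the T cell and Treg genes, at 4003 and 3509 CPM in splenic and 5244 and 5092 CPM in nodal Tregs. The erythroid and platelet genes were also lower in the deficient library of both pairs, at 0.507 and 0.346 CPM in splenic and 41.8 and 3.95 CPM in nodal Tregs. Their sum was below 1 CPM in both splenic libraries, where Ramp1 stood at 27.4 and 10.0 CPM. The part of other cells in these ratios was not tested. In bulk RNA, fewer cells that express a gene and less RNA per cell cannot be told apart.

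Counts of other kinds of read at the 2 genes gave the same order of genotypes. Of the Penk exon reads, 92.0% to 96.3% were placed uniquely, and on these the deficient level was 2.97 times WT in splenic Tregs (95% exact binomial interval 2.67 to 3.30) and 3.32 times in nodal ones (3.06 to 3.60). All Ramp1 exon reads were placed uniquely, so its ratios were the same on both counts. Penk reads across exon junctions numbered 33 in WT and 68 in deficient splenic Tregs, and 14 and 86 in nodal ones. The ratio was 2.81 (1.83 to 4.40) in splenic Tregs and 5.51 (3.11 to 10.5) in nodal ones. Ramp1 junction reads numbered 16 and 4 in splenic Tregs, and 28 and 3 in nodal ones. WT had 10.4 times the deficient level in nodal Tregs (3.21 to 53.5), and in splenic Tregs the interval (0.946 to 12.1) included a ratio of 1. These classes come from the same libraries as the exon reads and are no separate support.

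Reads inside the genes but outside their annotated exons, which can include unspliced RNA, differed more between the genes. For Penk they numbered 41 and 91 in the splenic libraries (WT and deficient) and 21 and 55 in nodal ones, with the deficient level 3.03 times WT (95% exact binomial interval 2.07 to 4.49) and 2.35 times WT (1.40 to 4.09). For Ramp1 they numbered 30 and 16 in splenic Tregs, and 422 and 105 in nodal ones. The WT level was 4.48 times the deficient level in nodal Tregs (3.61 to 5.60), and in splenic Tregs the difference was not detectable at this depth (1.37, 0.726 to 2.70). Ramp1 reads outside exons were 12.2% of its gene reads in WT (95% exact binomial interval 8.38% to 16.9%) and 21.6% in deficient splenic Tregs (12.9% to 32.7%). In nodal Tregs that share was 60.9% in WT (57.1% to 64.5%) and 71.4% in deficient Tregs (63.4% to 78.6%), higher than in 94.5% and 97.3% of genes with at least 100 exon reads and 2 exons. The share over all such genes had a median of 18.7% and 19.4% in splenic Tregs and 11.6% and 13.5% in nodal ones, lower in nodal than in splenic Tregs, whereas the Ramp1 share was higher. Penk lay below the median gene in all 4 libraries, with 1.83% to 7.0%.

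**Figure D3:**
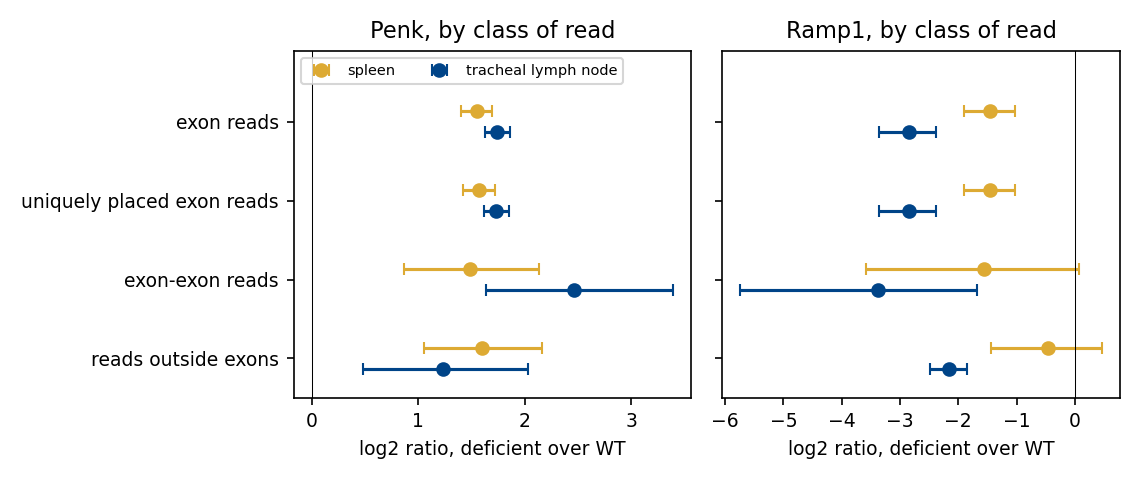
Log2 ratio of Csnk2b-deficient over WT (x axis) for 4 classes of read at Penk and Ramp1, in the splenic and nodal pairs, all scaled by the same library sizes. Bars are 95% exact binomial intervals and cover counting error only. All Penk intervals lie above 0, and all Ramp1 intervals lie below 0 except those of junction reads and of reads outside exons in splenic Tregs.

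Few of the exon reads of either gene crossed a junction. For Penk the share was 5.86% and 5.62% in the splenic libraries (WT and deficient) and 1.77% and 2.92% in nodal ones. The Ramp1 share was 7.41% and 6.90% in splenic Tregs, and 10.3% and 7.14% in nodal ones. The median gene had 13.7% to 17.5%, and 10.7% to 13.5% of genes had a lower share than Penk. Both transcripts have few junctions and a long last exon, as shown above. The median read depth over the exons was 19 and 43 for Penk in splenic Tregs and 28 and 105 in nodal ones, and for Ramp1 it was 1 in each WT and 0 in each deficient library. The tables list 1634 exon bases for Penk and 3022 for Ramp1, and 1 of the Ramp1 gene's 3 annotated transcripts was listed as detected in each library.

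**Figure D4:**
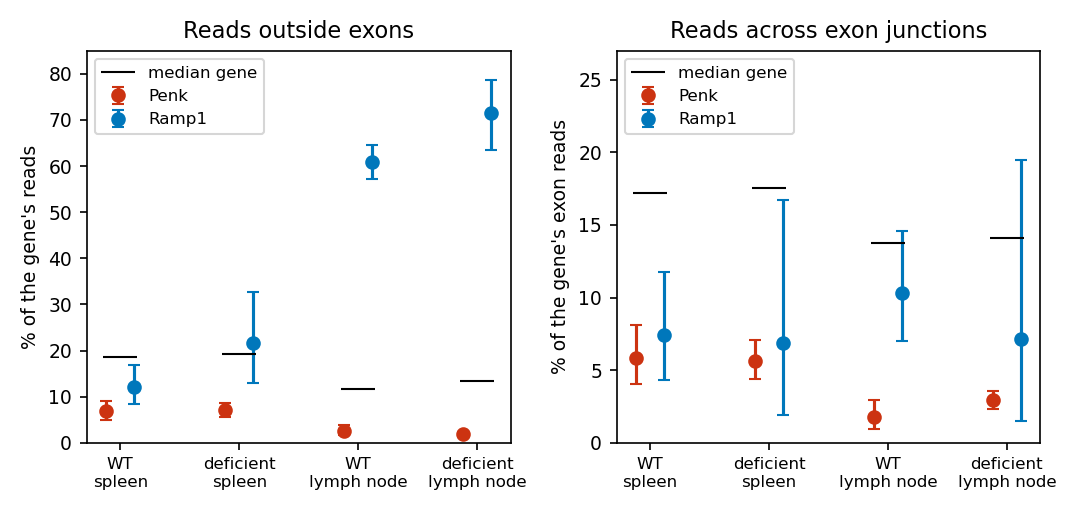
Left, reads outside exons as a percentage of all reads of the gene, and right, reads across exon junctions as a percentage of exon reads, for Penk and Ramp1 in each library. Bars are 95% exact binomial intervals, and dashes mark the median of genes with at least 100 exon reads and 2 exons. Ramp1 reached 60.9% and 71.4% outside exons in the nodal libraries, compared with 12.2% and 21.6% in splenic Tregs.

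The nodal and splenic libraries were also compared, a contrast on which the members had not been picked. Penk was higher in nodal Tregs by 1.53 ± 0.20 on the log2 scale (SE of the edgeR fit, n = 2 per tissue, edgeR adjusted p = 0.000106), with 1.43 in WT and 1.63 in deficient Tregs, so that its exon reads were higher in both genotypes. Uniquely placed exon reads were higher in nodal Tregs as well, at 2.83 times the splenic level in WT and 3.16 times in deficient Tregs. Of the junction reads and the reads outside exons, only the junction reads of deficient Tregs were higher beyond counting error. Junction reads in nodal Tregs were 0.818 times the splenic level in WT (95% exact binomial interval 0.404 to 1.57) and 1.60 times in deficient Tregs (1.15 to 2.24), and reads outside exons were 0.987 times (0.554 to 1.71) and 0.766 times (0.538 to 1.08). The edgeR test called 2586 genes higher in nodal Tregs, or 23.3% of all. The Penk call was lost when any 1 of the 4 libraries was left out and tissue alone was fitted (edgeR adjusted p from 0.0662 to 0.715, coefficient from 0.42 to 2.52), and over all 11 alternatives its adjusted p ranged from 2.73e-10 to 0.715. Ramp1 had a tissue coefficient of 0.63 ± 0.45 (edgeR adjusted p = 0.275, from 0.0359 to 0.822 over the alternatives). In nodal Tregs its exon reads were 2.42 times as high as in splenic ones in WT (95% exact binomial interval 2.01 to 2.90) and 0.918 times as high in deficient Tregs (0.602 to 1.39). Its reads outside exons were further apart, at 27.1 times the splenic level in WT (18.7 to 40.7) and 8.32 times in deficient Tregs (4.89 to 15.1). Without the WT nodal library, and with tissue alone fitted, the Ramp1 coefficient was -1.02, from the deficient nodal library against both splenic ones. On all 4 libraries limma-voom called Ramp1 at 0.98. The labels give different RNA and library kits to samples 1 and 2 and samples 3 and 4. In the order of listing these are the splenic and the nodal libraries, and kit and tissue then cannot be told apart.

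Penk was the only opioid precursor gene with more than 7 reads in a library. Pomc, the precursor of beta-endorphin, had 0 to 7 reads, Pnoc, the nociceptin precursor, 0 or 1, and Pdyn, the dynorphin precursor, 0. Receptors for the peptides were scarce. Oprm1, the mu receptor, had 6 to 8 reads in each library (0.761 to 1.47 CPM), Oprd1, the delta receptor, had 1 read in WT splenic Tregs and 0 elsewhere, and Oprk1 and Oprl1 had 0. A count of 0 allows a level of up to 0.38 to 0.73 CPM in these libraries, as 3 reads would give. Ogfr, which encodes a separate binding protein for Met-enkephalin, was at 98.8 and 104 CPM in splenic Tregs (WT and deficient) and at 17.8 and 8.11 CPM in nodal ones. Its genotype log2 fold change was -0.44 ± 0.35 (SE, edgeR adjusted p = 0.895).

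Of 14 genes of prohormone processing and the secretory granule, which include cutting and trimming enzymes and also chaperones and granins, 8 were measured. The edgeR test called 0 of the 8, and 1 had an unadjusted p under 0.05, compared with 0.144% and 4.88% of all genes. Their median log2 fold change was 0.37, compared with 0.0087 over all genes. Deficient levels were higher in both tissues for 4 and lower in both for 1, compared with 27.7% and 29.2% of all genes. The most abundant of the 8 were the proprotein convertase Pcsk7 (log2 fold change 0.39 ± 0.30), the carboxypeptidase Cpd (0.35 ± 0.38) and the convertase Furin (0.62 ± 0.40). Pcsk1, a main convertase of prohormones, had 2 reads in WT and 16 in deficient splenic Tregs, and 0 and 33 in nodal ones. In nodal Tregs the deficient level was at least 9.87-fold higher at a floor of 3 reads in the WT library. The Pcsk1 log2 fold change was 4.63 ± 1.76 (edgeR adjusted p = 0.890). Cpe, the carboxypeptidase that trims the cut peptides, had 17 and 33 reads in splenic Tregs, and 9 and 71 in nodal ones (log2 fold change 2.09 ± 0.95, edgeR adjusted p = 0.890). Pam, the 1 gene lower in both tissues, had 44 and 28 reads in splenic Tregs, and 27 and 8 in nodal ones (-1.0 ± 1.09, edgeR adjusted p = 0.917). Pcsk2, another convertase gene, had 1 read in deficient splenic Tregs and 0 elsewhere. Pcsk1, Cpe, Pam and Pcsk2 were named after their values were seen. Of 8 peptidase genes that degrade enkephalins 5 were measured, with 0 called and a median of -0.38. Npepps (0.20 ± 0.26), Dpp3 (-0.12 ± 0.28) and Ece1 (-0.45 ± 0.35) were the most abundant. Mme, which encodes neprilysin, had 0 reads in all libraries.

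The partner of Ramp1, the receptor Calcrl, was at 25.4 and 31.3 CPM in splenic Tregs (WT and deficient), and 96.1 and 82.2 CPM in nodal ones. Its genotype log2 fold change was 0.03 ± 0.30 (SE, edgeR adjusted p = 0.993). On the RPKM scale Ramp1 was 1.74 times Calcrl in WT and 0.518 times in deficient splenic Tregs, and 1.11 and 0.181 times in nodal ones. Ramp1 RNA was thus above Calcrl RNA per length in WT splenic Tregs and below it in both deficient libraries. In WT nodal Tregs the ratio was near 1, from 271 Ramp1 and 393 Calcrl reads. No interval was computed for these ratios, so the order in that library is not settled. Ramp2, whose product makes Calcrl an adrenomedullin receptor, was at 11.4 and 18.9 CPM in splenic Tregs, and 23.2 and 11.6 CPM in nodal ones (-0.13 ± 0.58). Ramp3, a further adrenomedullin receptor part, had 10 and 19 reads in splenic Tregs, and 0 and 34 in nodal ones, where the deficient level was at least 10.2-fold higher at a floor of 3 reads. Crcp, named for the CGRP receptor and also a subunit of RNA polymerase III, had 0.59 ± 0.33, and the calcitonin receptor gene Calcr had 0 reads. Of the 4 measured receptor parts other than Ramp1 (Calcrl, Ramp2, Ramp3 and Crcp), edgeR called 0. At an unadjusted p below 0.05 there were 0, compared with 0.144% called and 4.88% at that p of all genes. Their median was 0.31. Deficient levels were higher in both tissues for 2 and lower in both for 0, compared with 27.7% and 29.2% of all genes. None of the 5 ligand genes was measured. Calca, which encodes CGRP, had 4 reads in deficient nodal Tregs and 0 elsewhere, Calcb and Adm2 had 1 read in 1 library each, and Adm and Iapp had 0.

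**Figure D5:**
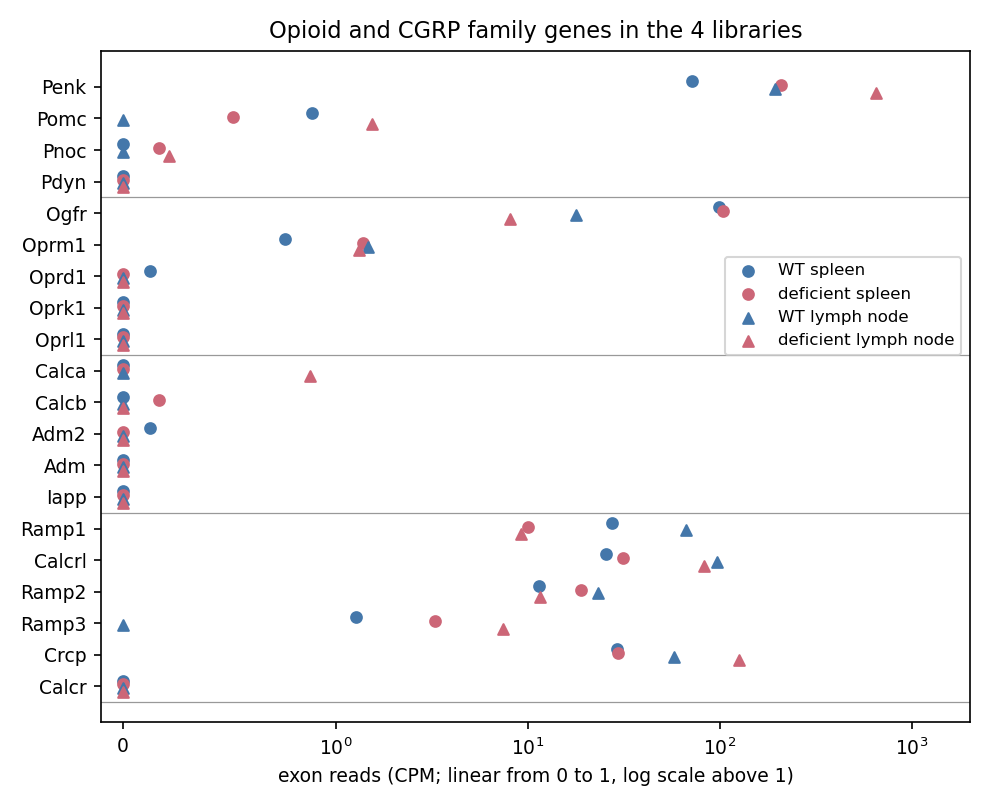
Exon reads in CPM (log scale above 1, linear from 0 to 1) of opioid precursors, opioid receptors, CGRP family ligands and receptor parts, for each library (circles spleen, triangles lymph node, blue WT, red Csnk2b-deficient). Penk, Ogfr, Ramp1, Calcrl, Ramp2 and Crcp were above 5 CPM in all 4 libraries, while Pdyn, Oprk1, Oprl1, Adm, Iapp and Calcr were at 0.

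Downstream of these receptors, 19 of 21 genes of Gs and cyclic AMP signalling were measured. None passed the edgeR test (0 called), and 2 had an unadjusted p under 0.05, compared with 0.144% and 4.88% of all genes. Their median was 0.09. Deficient levels were higher in both tissues for 9 and lower in both for 7, compared with 27.7% and 29.2% of all genes. The abundant members Prkar1a, a regulatory subunit of protein kinase A, Adcy7, an adenylyl cyclase, and Gnas, the Gs alpha gene, had log2 fold changes of -0.09 ± 0.19, 0.24 ± 0.19 and -0.42 ± 0.22. Adcy6, another adenylyl cyclase, had 293 and 59 reads in splenic Tregs (WT and deficient), and 112 and 25 in nodal ones (log2 fold change -2.08 ± 0.47, edgeR adjusted p = 0.223), and without a filter on low counts edgeR called it (adjusted p = 0.0145). Crem, which encodes activators and repressors of cyclic AMP responses, had 145 and 180 reads in splenic Tregs, and 172 and 499 in nodal ones (1.08 ± 0.33, edgeR adjusted p = 0.582). Among 10 Gi proteins, arrestins and receptor kinases edgeR called 0, with 1 at an unadjusted p under 0.05, beside the same shares of all genes. Their median was -0.25. Deficient levels were higher in both tissues for 3 and lower in both for 7, beside 27.7% and 29.2% of all genes. Gnai2 and Gnai3, alpha subunit genes, and Adrbk1, a receptor kinase gene, were the most abundant and had -0.39 ± 0.21, 0.09 ± 0.21 and -0.15 ± 0.19. Gnb2, a G beta subunit gene, had an unadjusted p below 0.05 (-1.0 ± 0.42, edgeR adjusted p = 0.890). Adcy6, Crem and Gnb2 were named because of their values.

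Of 11 measured AP-1, BATF and NR4A genes, whose products respond to T cell receptor signals, edgeR called 0, and 0 had an unadjusted p under 0.05. Their median was 0.08, and deficient levels were higher in both tissues for 3 and lower in both for 1. Junb, Batf and Jund, the most abundant, had log2 fold changes of 0.24 ± 0.27, 0.22 ± 0.23 and 0.16 ± 0.31. Junb was at 235 and 265 CPM in splenic Tregs and at 2.93 and 3.95 CPM in nodal ones, far apart between the tissues. Of the other neuropeptide genes 1 of 13 was measured, Nmb, which encodes neuromedin B (0.04 ± 0.46), and 9 had 0 reads in all libraries. Of their receptor genes 1 of 16 was measured, Vipr1, a receptor for vasoactive intestinal peptide (0.87 ± 0.91), and 9 had 0 reads. In all, 60 of 115 pathway genes other than Penk and Ramp1 were measured. The genotype test called 0 of the 60 by edgeR (4 at an unadjusted p below 0.05), and 0 by DESeq2 and limma-voom. Over all genes edgeR called 0.144% and had 542 of 11113 (4.88%) at an unadjusted p below 0.05, so both counts were near the background. Deficient levels were higher in both tissues for 23 of the 60 and lower in both for 18, compared with 27.7% and 29.2% of all genes.

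Of the 3 listed features on each side of Penk and of Ramp1, 5 were measured, and none had a ratio past 2-fold in the direction of its neighbour in both pairs. Beside Penk, Impad1 (623664 bases away) had log2 ratios of 0.36 in splenic and 0.06 in nodal Tregs, and Gm11808 (159935 bases away) had -0.12 and 1.44. A830012C17Rik, whose listed span overlaps Penk, had 2 exon reads in WT splenic Tregs and 0 elsewhere. Around Ramp1, Lrrfip1 (50877 bases away) had ratios of 0.02 and 0.15, and Ube2f (25114 bases away) had 0.13 and 0.12. Scly had 0.15 and 2.43, from 19 and 121 reads in nodal ones. Neither Sdr16c5, Sdr16c6 and Gm11782 near Penk nor Gm17560 near Ramp1 had an exon read, Rab17 had 1 read in all, and Rbm44 had 0 to 9.

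The genes whose 4 log2 levels, each centred on its mean, lay closest to Penk among 9651 genes with a mean of at least 5 CPM were F830016B08Rik (Euclidean distance 0.33), Fabp5 (0.51), a fatty acid binding protein gene, Tmem159 (0.54), Pls3 (0.57), which encodes an actin-bundling plastin, and Poc1a (0.59), a centriole gene. F830016B08Rik had 7.74 and 17.8 CPM in splenic Tregs (WT and deficient), and 18.3 and 73.2 CPM in nodal ones. Closest to Ramp1 were Gsto1 (0.32), a glutathione transferase gene, 9430038I01Rik (0.39), Zcchc24 (0.46), Pik3r3 (0.53), a regulatory subunit of phosphoinositide 3-kinase, and Oas2 (0.54), an interferon-induced antiviral gene. Gsto1 had 19.8 and 7.78 CPM in splenic Tregs, and 59.9 and 8.77 CPM in nodal ones, so that it was highest in the WT nodal library and low in both deficient ones, as Ramp1 was. With 4 libraries such likeness is a description of these values.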

How the data were processed

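Reads of sorted Tregs were counted by the authors in 4 tables, 1 per library. The deposited counts are whole reads per gene, split into gene, exon, exon-exon and intron-exon reads, each as total and unique, per the file headers. The authors' RPKM, where exon reads exceeded 500, differed by at most 0.0005 from exon reads per kilobase scaled to the sum of gene reads. The deposited coverage column holds each gene's median read depth, a signal per the file headers. Per the submitters' processing notes, CASAVA 1.8.2 and mm9 were used; aligner, annotation and strand use were not given in the sources used here. Of 37583 features, 9551 without an exon length had 0 exon reads and were left out.

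Total exon reads were tested with edgeR 4.0.16 (R 4.3.3): filterByExpr by genotype, TMM scaling, robust quasi-likelihood F test on tissue plus genotype, Benjamini-Hochberg adjustment, threshold 0.05. This leaves 1 residual degree of freedom, moderated across genes. Each SE is a log2 fold change divided by the root of its F value. The replicate number is the tissue in the labels, so the tissue term is the replicate block; same-numbered libraries deviated together (correlation 0.783). The script was checked on simulated counts with known fold changes. Their spread between libraries was smaller than that fitted to these data, so the check gives no error rate for the calls here. Log2 ratios used a prior count of 2. Fold ratios within pairs used reads over TMM-scaled library size with exact binomial intervals. All intervals treat each read as independent and cover counting error only. PCR copies are not independent molecules, so the intervals can be too narrow even for that error. Alternatives were other scalings, filters, count columns, DESeq2 1.42.0, limma-voom (limma 3.58.1), no block, and each library left out.

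By rule, named genes were list members called or else the 3 most abundant measured, the 5 closest in pattern and 3 neighbours per side. The other opioid and CGRP family genes, and list genes at an unadjusted p below 0.05, were added once values were known. So were Cpe, Pam and Pcsk2, which meet none of these rules. Members and lists were chosen with earlier results of these data known. Sequences came from GENCODE M21 (GRCm38), and coordinates of the tables are mm9. A neuronal and glial marker, and the sum of that list, is not reported here.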

Additional observations from a re-analysis of the deposited data

Results flagged for a closer look

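Among 26 named pathway genes, 3 had genotype ratios of opposite direction in the splenic and nodal pairs, each beyond counting error. Cpe, Pam and Pcsk2 were not among the 26. With 1 library of each kind, these differences between the tissues were not tested. Genes whose opposite ratios lay within counting error were left out, a restriction set once values were known. The log2 ratio of Ramp2 was lower in nodal than in splenic Tregs by a difference of -1.68, with levels of 11.4 and 18.9 CPM in WT and deficient splenic Tregs, and 23.2 and 11.6 CPM in nodal ones. That of Cpd differed by -1.31, with 24.4 and 49.1 CPM in splenic Tregs, and 61.8 and 49.8 CPM in nodal ones. That of Calcrl differed by -0.52, with 25.4 and 31.3 CPM in splenic Tregs, and 96.1 and 82.2 CPM in nodal ones, and its intervals came close to a ratio of 1 in both tissues.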

How the results depend on the processing

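The genotype ratios of Penk and Ramp1 kept their direction in all 8 alternatives. On exon-exon reads with their own scaling the Penk log2 ratio was 1.39 in splenic Tregs and 2.31 in nodal ones. These lay outside the counting intervals of the exon-read ratios, 1.55 and 1.74, and the other alternatives for both genes stayed within theirs. Exon-exon reads were far fewer, and their own counting intervals (0.87 to 2.14 and 1.64 to 3.39, at the exon-read scaling) included 1.55 and 1.74. The number of genes called for the genotype depended on the fit: 16 became 4 with median-of-ratios scaling, 7 with uniquely placed reads, 50 with the DESeq2 Wald test, 64 with limma-voom and 111 without a filter, and 0 with no replicate block (29 at an unadjusted p below 0.05). With 1 library left out and genotype alone fitted it was 0 to 1 (44 to 803 at an unadjusted p below 0.05), the lone library being assumed to vary like the others. Of the pathway genes, 1 (Adcy6) was called without a filter. The tissue test called 5050 genes, and 2186 to 7874 with 1 library left out. The Penk tissue coefficient was then 0.42 to 2.52 and no longer called. That of Ramp1 was -1.02 to 1.87, with -1.02 without WT replicate 2. In these fits tissue alone was fitted and 1 tissue held 1 genotype only, so genotype and tissue cannot be told apart in their coefficients. On all libraries limma-voom called Ramp1 at 0.98, and the cause of that call was not tested. Upper-quartile scaling moved the median tissue coefficient of all genes from -0.17 to -0.32, and that of Penk to 1.38. Ramp1 had 42 to 58 exon reads in the deficient libraries, which limits the precision of its ratios.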

Other observations

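Among neuropeptide genes outside the opioid and CGRP families, Gal, which encodes galanin, had 19 reads in deficient nodal Tregs (4.17 CPM), 1 in deficient splenic Tregs and 0 in both WT libraries. Npy, the neuropeptide Y gene, had 10 reads in WT nodal Tregs (2.44 CPM) and 0 in the other libraries. Vipr2, a second receptor for vasoactive intestinal peptide, had 2 and 6 reads in splenic Tregs (WT and deficient), and 8 and 21 in nodal ones. None of the 3 had enough reads to be tested, and they were picked for these values.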
